A study of Mus musculus with 6 samples.

Results

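The interferon-inducible GTPases were described in acute lymphoblastic leukaemia of mice driven by BCR-ABL1, in AID-/- cells and in AID+/+ cells. The members were 10 genes of the guanylate-binding protein (Gbp) and immunity-related GTPase (Irg) families: Gbp2b, Gbp2, Gbp3, Gbp5, Gbp6, Gbp7, Igtp, Irgm1, Irgm2 and Iigp1. A probe set counted as a member when the platform annotation gave it 1 of these symbols and no other, which held for 13 of 45037 probe sets and 9 of 18193 genes. No probe set was annotated to Gbp5 in the table used here, and 0 probe sets named a member among several symbols. The family was chosen by its levels in these same arrays, namely the difference between the genotypes and the order of the AID-/- arrays. Those values are therefore given as a description of the 6 arrays and carry no test.

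The study compared 3 AID-/- leukaemia arrays with 3 AID+/+ leukaemia arrays, all labelled Balb/c, to look for expression differences tied to AID. BCR-ABL1 is the fusion tyrosine kinase of Philadelphia chromosome-positive leukaemia, and both groups carry it by the title of the series. The arrays of each genotype are labelled as biological replicates. The sources used here state neither treatment nor age, nor how many animals gave the leukaemias. What part of the spread between arrays lies between animals is therefore not known. Expression is given as RMA values, which are background-corrected, normalised between arrays and on the log2 scale, so that a difference of 1 is a 2-fold change. Such values cannot be set against each other between probe sets, and they have no true zero: the lowest was 2.15, the highest 14.33, and the array medians lay between 4.85 and 4.90.

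Both families belong to the cell-autonomous defence that interferons switch on. Interferon gamma acts at gamma-activated sites (GAS) in the DNA, and type I interferons act through a complex that holds IRF9 at interferon-stimulated response elements (ISRE), which IRF1 also binds. Guanylate-binding proteins are large dynamin-like GTPases that assemble on the membranes of microbes and of the vacuoles around them. Immunity-related GTPases comprise effectors, such as the product of Iigp1, that coat such vacuoles, and regulators, the products of Irgm1, Irgm2 and Igtp, that keep the effectors off the membranes of the cell itself. Transcripts of both families are widely used as readouts of an interferon response.

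The promoters of 6 measured members are shown because the members ranked the arrays alike, and interferons are known to act through short elements near the start of such genes. Each is the RefSeq window of 300 bases from 250 before to 50 after the annotated start, in assembly GRCm38.p6, which is that of C57BL/6J and not of Balb/c mice. The windows lie at chr3:142594597-142594896 (Gbp2b), chr3:142620413-142620712 (Gbp2), chr3:142530086-142530385 (Gbp7), chr11:58199306-58199605 (Igtp) and chr11:58214727-58215026 (Irgm2) on the plus strand, and at chr11:48871371-48871670 (Irgm1) on the minus strand. Sequences run 5′ to 3′ along the gene, and capitals mark matches to the ISRE core GAAANNGAAA or to the GAS TTCNNNGAA on either strand.
Gbp2b: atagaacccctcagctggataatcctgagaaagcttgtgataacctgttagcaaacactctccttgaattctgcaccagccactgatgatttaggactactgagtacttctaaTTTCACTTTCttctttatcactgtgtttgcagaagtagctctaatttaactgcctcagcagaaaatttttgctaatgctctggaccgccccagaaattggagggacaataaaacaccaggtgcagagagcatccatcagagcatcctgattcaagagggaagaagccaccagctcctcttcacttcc
Gbp2: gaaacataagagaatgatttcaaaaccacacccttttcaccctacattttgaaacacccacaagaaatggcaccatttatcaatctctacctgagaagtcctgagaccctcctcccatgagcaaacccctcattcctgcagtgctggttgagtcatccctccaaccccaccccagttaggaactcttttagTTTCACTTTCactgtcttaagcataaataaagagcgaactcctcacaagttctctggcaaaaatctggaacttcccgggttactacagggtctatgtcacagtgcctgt
Gbp7: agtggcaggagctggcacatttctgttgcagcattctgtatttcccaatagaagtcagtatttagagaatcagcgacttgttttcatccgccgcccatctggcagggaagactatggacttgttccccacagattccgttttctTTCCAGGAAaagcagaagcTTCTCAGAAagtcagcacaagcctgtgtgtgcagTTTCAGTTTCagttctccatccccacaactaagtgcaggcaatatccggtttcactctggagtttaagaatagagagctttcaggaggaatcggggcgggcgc
Igtp: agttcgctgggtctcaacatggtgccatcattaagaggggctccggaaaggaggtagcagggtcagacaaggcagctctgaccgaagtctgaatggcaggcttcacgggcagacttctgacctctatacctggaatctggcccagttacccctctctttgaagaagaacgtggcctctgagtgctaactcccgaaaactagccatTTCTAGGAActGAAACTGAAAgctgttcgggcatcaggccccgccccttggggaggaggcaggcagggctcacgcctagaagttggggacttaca
Irgm2: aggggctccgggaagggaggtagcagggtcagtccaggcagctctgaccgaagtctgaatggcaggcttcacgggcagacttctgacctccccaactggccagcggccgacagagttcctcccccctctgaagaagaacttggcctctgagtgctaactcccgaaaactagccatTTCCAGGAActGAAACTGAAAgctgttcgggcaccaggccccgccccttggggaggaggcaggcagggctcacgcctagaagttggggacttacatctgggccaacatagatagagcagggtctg
Irgm1: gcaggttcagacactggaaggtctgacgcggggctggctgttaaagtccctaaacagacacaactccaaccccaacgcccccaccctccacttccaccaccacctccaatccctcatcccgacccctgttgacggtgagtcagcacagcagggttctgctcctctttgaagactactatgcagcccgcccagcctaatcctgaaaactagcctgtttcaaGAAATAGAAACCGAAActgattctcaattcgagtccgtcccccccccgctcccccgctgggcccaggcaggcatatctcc

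Windows of 8 members were searched, with the unmeasured Gbp5 among them. Gbp6 had no window, and windows on chromosome 18, where Iigp1 lies, were left out of the search. Each of the 8 members searched held at least 1 ISRE core. Over all 32851 promoter windows of that length in the table, 3.44% held one. The GAS was found in 4 of the 8 members (Gbp5, Gbp7, Igtp and Irgm2), against 8.30% of all windows. Gbp3 has a second annotated start, whose window held neither motif. In Gbp2b the ISRE core lay at -137 to -128 from the start, in Gbp2 at -59 to -50 and in Gbp7 at -53 to -44. Irgm1, and Gbp3 likewise, held a pair of ISRE cores that overlapped by 4 bases. In Igtp and in Irgm2 the GAS was followed after 2 bases by the ISRE core, and these windows shared an unbroken run of 61 bases. A match to these letters is a description of the window, and binding was not measured.

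**Figure D1:**
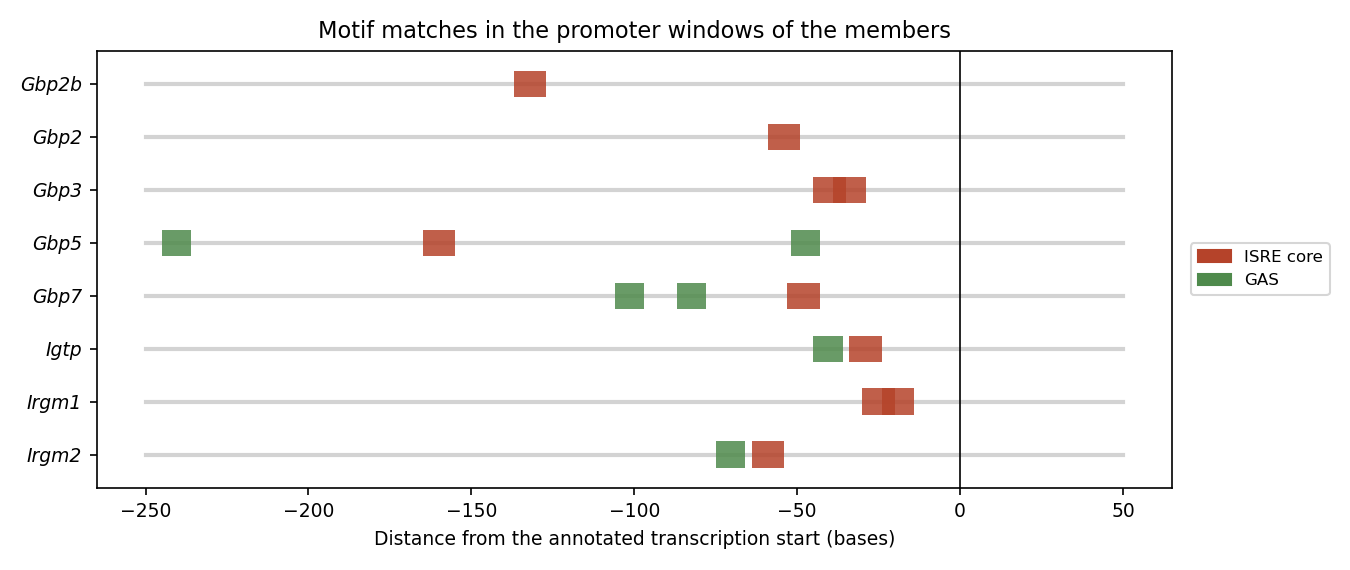
Matches to the ISRE core (red) and the GAS (green) in the promoter windows of 8 members, 1 row per gene, by distance in bases from the annotated start (black line at 0). Every row holds an ISRE core, and in Igtp and Irgm2 a GAS lies next to it.

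Several features of the arrays moved with the genotype. Xist, the RNA that silences an X chromosome, read 4.35 to 6.02 in AID-/- and 11.93 to 12.18 in AID+/+ leukaemia at 1 of 3 probe sets. Its other probe sets differed by -8.68 (SE 0.10) and -6.04 (SE 0.16). The Y-linked gene Kdm5d read 7.62 to 7.74 in AID-/- and 2.42 to 2.68 in AID+/+ leukaemia at 1 of 3 probe sets. Its other probe sets differed by 1.02 (SE 0.14) and 0.42 (SE 0.15), of which the latter did not pass. Sex and genotype therefore cannot be told apart for any member. Group means of markers were set against the median probe set, which is the median over all probe sets of the mean of the 6 arrays. Of the B-lineage markers, 9 of 9 measured genes were above it in both groups. Their summed log2 level was 99.1 to 100.5 in AID-/- and 98.9 to 100.8 in AID+/+ leukaemia. Among cells that make or answer interferon, natural killer cell markers summed to 25.0 to 25.4 in AID-/- and 25.7 to 26.4 in AID+/+ leukaemia over 7 genes. Of these, 0 were above the median probe set in AID-/- and 1 in AID+/+ leukaemia. The sums over 10 T cell markers were 44.2 to 46.2 in AID-/- and 47.9 to 49.6 in AID+/+ leukaemia. In both groups 4 genes were above the median probe set. Of these 10 markers Cd2 differed most, by -2.18 (SE 0.63), and did not pass. Of 9 macrophage and monocyte markers, 3 were above the median probe set in both groups. Their sums were 39.0 to 39.3 in AID-/- and 39.7 to 41.5 in AID+/+ leukaemia. Those over 5 plasmacytoid dendritic cell markers were 25.7 to 25.8 in AID-/- and 25.2 to 25.9 in AID+/+ leukaemia, with 3 above it in AID-/- and 2 in AID+/+ leukaemia. No measured granulocyte (7 genes), erythroid (3) or stromal (6) marker was above it in either group. In all these lists limma called 1 gene higher, Lyz2, and 3 lower, Fcgr1, Cd28 and Cd72, and the part of other cells in the members' differences was not tested. In such bulk RNA, more cells expressing a gene and more RNA per cell cannot be told apart.

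All 13 member probe sets had a higher mean in AID-/- than in AID+/+ leukaemia. At the brightest probe set of each gene the differences ran from 0.85 for Irgm1 to 6.11 for Gbp2b, with a median of 2.00 over the 9 genes. The median over all genes was -0.03. limma, which fits every probe set and moderates its variance, called 11 of the 13 member probe sets higher at an adjusted p under 0.05, where 7.24% of all probe sets were called higher. The AID-/- arrays all lay above the AID+/+ arrays at 12 member probe sets, which holds for 14.2% of all probe sets. Because this contrast helped choose the family, nothing is read from these shares. The number of called member probe sets was 9 to 13 with any 1 array left out and 6 without variance moderation.

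Gbp2b, a guanylate-binding protein gene formerly named Gbp1, differed most. Its interferon response is known to vary between inbred mouse strains. Its single probe set read 8.74, 10.11 and 9.47 in AID-/- replicates 1, 2 and 3, against 3.50, 3.04 and 3.45 in the AID+/+ replicates. The groups were far apart, with 5.24 between the lowest AID-/- and the highest AID+/+ array, and replicate 2 was the highest of the AID-/- arrays. The difference of 6.11 (SE 0.31) ranked 5 among 45037 probe sets. In AID+/+ leukaemia the gene sat near the floor of the scale, where the dimmest 5% of values on each array lay under 2.78, so the size of the difference is approximate.

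Gbp2, which helps to open microbe-containing vacuoles, had a pair of probe sets that gave the same picture. The brighter one read 9.13, 9.96 and 9.91 in AID-/- replicates 1 to 3, against 6.92, 7.17 and 7.42 in AID+/+ leukaemia. At the other, the AID-/- arrays averaged 9.24 ± 0.47, against 6.96 ± 0.02 for the AID+/+ arrays (SD, n = 3 each). The groups did not overlap at either probe set, and AID-/- replicate 1 was lowest at both. The differences were 2.50 (SE 0.23) and 2.27 (SE 0.20), or 5.64-fold and 4.83-fold.

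Gbp3 and Gbp7 had the narrowest spans over the AID-/- arrays. The Gbp3 probe set read 10.37, 10.66 and 10.57 in AID-/- replicates 1 to 3, against 8.51, 8.45 and 8.78 in AID+/+ leukaemia, a difference of 1.96 (SE 0.12). The brighter Gbp7 probe set read 12.08, 12.42 and 12.30 in AID-/- leukaemia, against 10.66, 10.93 and 11.13 in AID+/+ leukaemia. Neither gene overlapped between groups, and the AID-/- arrays of each spanned only 0.29 and 0.34. Gbp7, which acts with the phagocyte oxidase in macrophages, was higher by 1.36 (SE 0.14) at this probe set and by 1.66 (SE 0.11) at the other.

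Gbp6, like Iigp1, spread widely over the AID-/- arrays, and limma did not call the dimmer probe set of either gene. The brighter Gbp6 probe set read 5.99, 7.97 and 6.91 in AID-/- replicates 1 to 3, against 4.88, 5.23 and 5.19 in AID+/+ leukaemia. The groups did not overlap there. The dimmer one read 3.98, 6.84 and 5.57 in AID-/- leukaemia, against 4.07, 3.88 and 3.49 in AID+/+ leukaemia. There AID-/- replicate 1 fell among the AID+/+ arrays, the only overlap among the 13 member probe sets. The differences were 1.86 (SE 0.41) and 1.65 (SE 0.59), and without AID-/- replicate 2 they were 1.35 and 0.96.

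Among the Irg regulators, Igtp (also Irgm3), found on the endoplasmic reticulum, read 8.15, 9.70 and 8.86 in AID-/- replicates 1 to 3. Its AID+/+ arrays read 6.95, 6.77 and 6.71, all below the AID-/- arrays. Irgm2, found at the Golgi apparatus, read 6.89, 7.93 and 7.39 in AID-/- leukaemia, against 5.30, 5.47 and 5.44 in AID+/+ leukaemia. These neighbours on chromosome 11 differed by similar amounts, 2.09 (SE 0.32) and 2.00 (SE 0.23), and kept the same order of AID-/- arrays.

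Irgm1, a regulator tied to the handling of lysosomes and mitochondria, had the smallest difference. It read 8.76, 9.81 and 9.33 in AID-/- replicates 1 to 3, against 8.44, 8.48 and 8.46 in AID+/+ leukaemia. The groups did not overlap, but AID-/- replicate 1 stood only 0.29 above the highest AID+/+ array. The difference was 0.85 (SE 0.23), or 1.80-fold, and it was 1.12 without AID-/- replicate 1 and 0.59 without AID-/- replicate 2.

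Iigp1, the effector also called Irga6 that coats the vacuole of Toxoplasma, had the second largest difference. Its brighter probe set read 5.93, 8.26 and 7.36 in AID-/- replicates 1 to 3, against 3.67, 4.37 and 4.21 in AID+/+ leukaemia, and the groups did not overlap. The dimmer one read 4.27, 7.03 and 5.14 in AID-/- leukaemia, against 3.47, 4.01 and 3.95 in AID+/+ leukaemia. AID-/- replicate 2 stood above both other AID-/- arrays by at least 0.90 at either probe set. The differences were 3.10 (SE 0.50) and 1.67 (SE 0.58), and without AID-/- replicate 2 that of the dimmer probe set was 0.90.

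**Figure D2:**
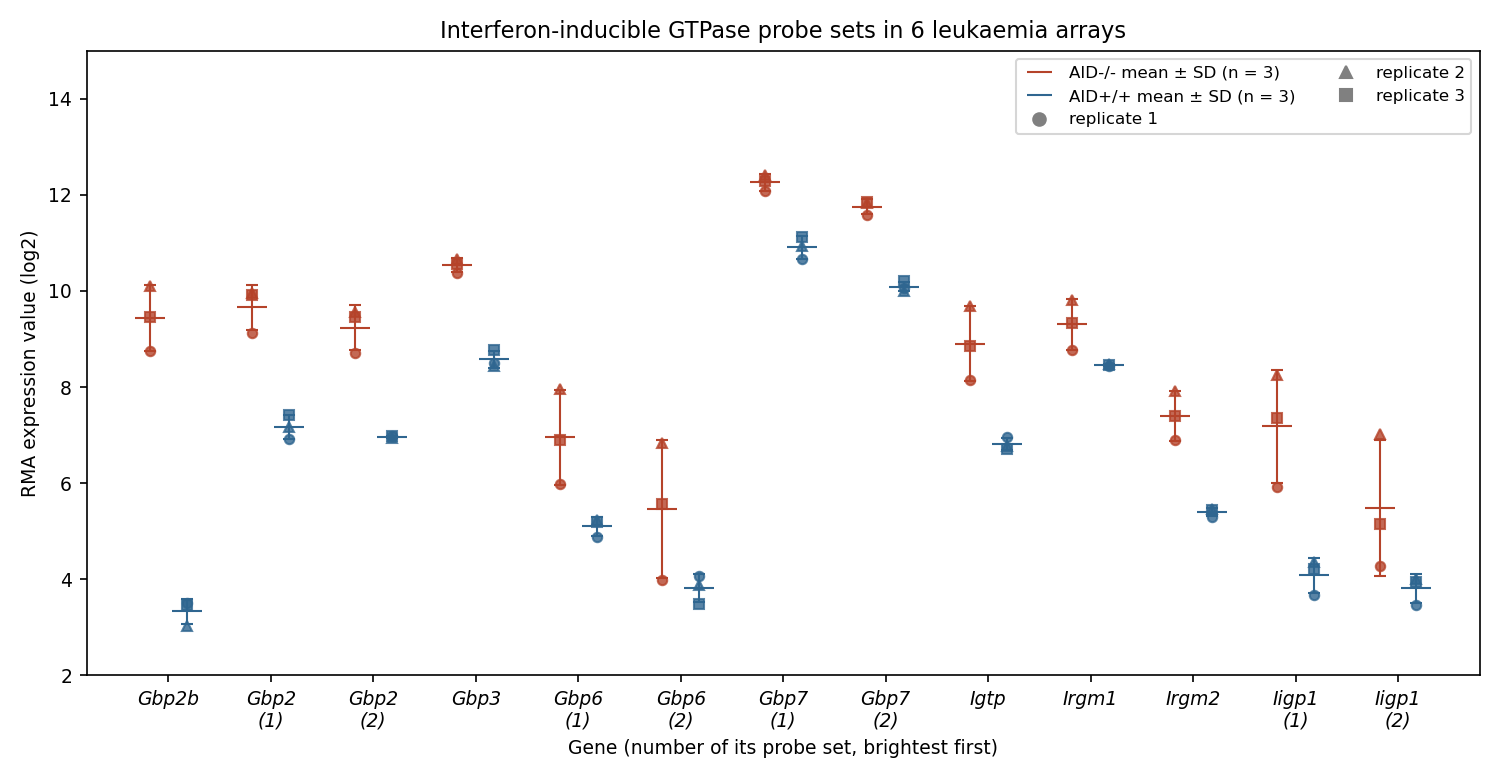
RMA expression values (log2) of the 13 member probe sets, with AID-/- arrays in red left of AID+/+ arrays in blue; symbols mark replicates, and bars the mean ± SD of 3 arrays. AID-/- arrays lie above AID+/+ arrays except at the dimmer Gbp6 probe set, where AID-/- replicate 1 at 3.98 falls among them.

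The members shared more than the direction: they ranked the AID-/- arrays alike. Replicate 1 was the lowest AID-/- array at 13 of 13 member probe sets, and the order replicate 2, then 3, then 1 from high to low held at 12 of 13. The exception was the dimmer Gbp7 probe set, where replicates 3 and 2 read 11.86 and 11.83. AID-/- replicate 1 was also the lowest at 40.8% of all probe sets and 47.6% of those called higher. The full order was found at 21.3% of all probe sets and 29.6% of those called higher in AID-/- leukaemia. The order was part of how the family was chosen. Over all probe sets, AID-/- replicate 2 exceeded replicate 1 by a median of 0.03. In AID+/+ leukaemia the 13 probe sets showed 5 different orders, of which 2, 3, 1 was again the most common, at 5 of 13.

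The genes differed widely in how far apart the AID-/- arrays lay. At the brightest probe sets, replicate 2 exceeded replicate 1 by 0.29 in Gbp3, 0.34 in Gbp7 and 0.83 in Gbp2, by 1.04 to 1.54 in Irgm2, Irgm1, Gbp2b and Igtp, and by 1.97 in Gbp6 and 2.33 in Iigp1. The last of these is a 5.02-fold spread among arrays of 1 genotype. The median probe set spanned 0.24 over the AID-/- arrays, whereas the member probe sets spanned a median of 1.05. The corresponding spans over the AID+/+ arrays were 0.23 for all probe sets and 0.36 for the members. Set against the AID+/+ mean, the 9 genes had a median of 1.49 on the first AID-/- replicate, and of 2.79 and 1.99 on replicates 2 and 3. Each AID-/- array was thus above the AID+/+ mean for all 9 genes at the brightest probe set, by 0.31 at the least, in Irgm1 of replicate 1.

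**Figure D3:**
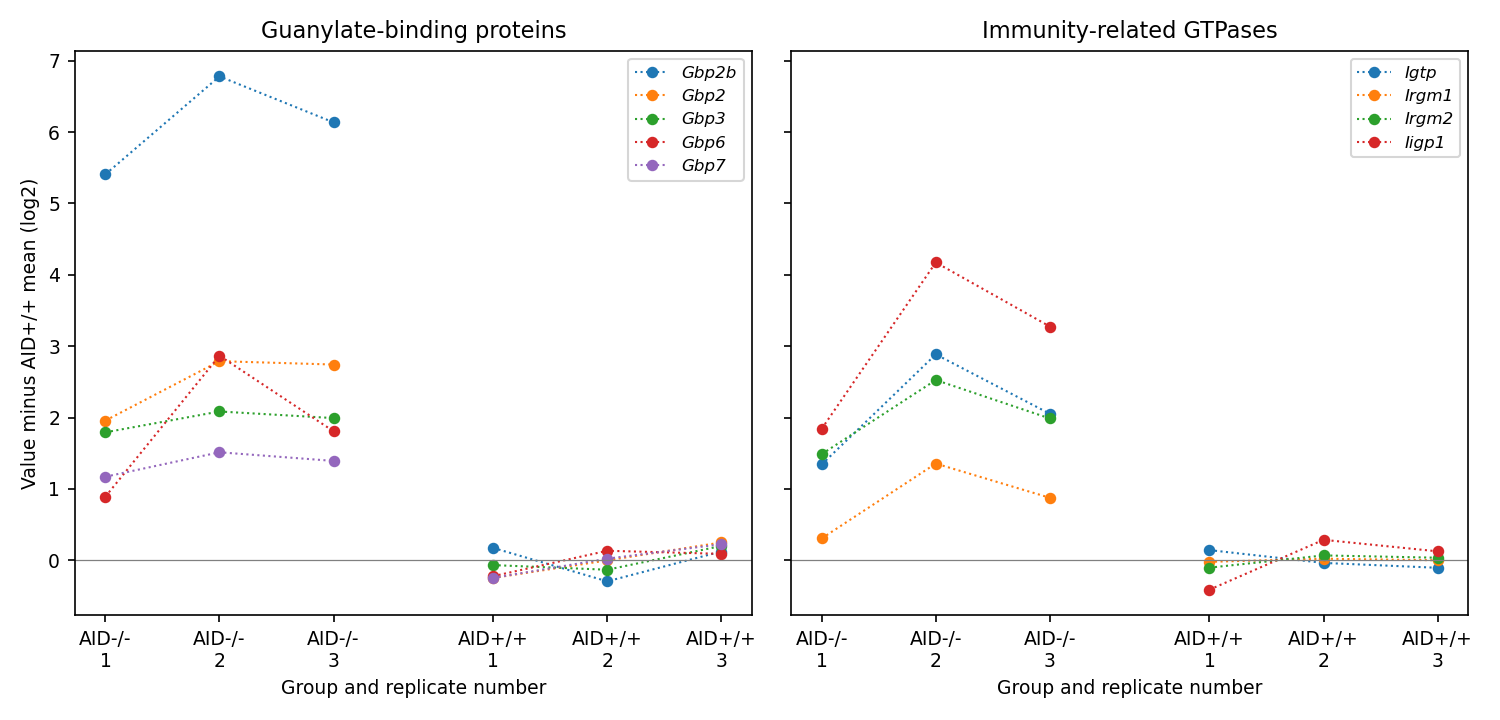
Value of each array minus the AID+/+ mean (log2) at the brightest probe set of 9 members; dotted lines only join the points of 1 gene. AID-/- replicate 2 is the highest and replicate 1 the lowest array for every gene, while the AID+/+ arrays scatter around 0.

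The related GTPases could be measured only in part. Of 18 other Gbp, Irg and Mx genes on a list from general knowledge, 6 had a probe set of their own. limma called 1 of these higher and 0 lower (2 higher and 0 lower at an unadjusted p under 0.05), where 17.1% of all genes were called in either direction. Ifi47, an Irg effector also called Irgd, rose to 10.25 ± 0.35 in AID-/- leukaemia, against 9.65 ± 0.03 in AID+/+ leukaemia (SD, n = 3 each; limma adjusted p = 0.0412). Its call held without AID-/- replicate 1 but not when any other array was left out, where the adjusted p was up to 0.124 and the count was 0. Gbp8 differed by 0.95 (SE 0.58; the SD of its AID-/- arrays was 1.42), Gm4951 by 0.42 (SE 0.28), and Mx1, the antiviral dynamin-like GTPase, by 0.31 (SE 0.13). None of these 3 passed. The order replicate 2, 3, 1 held in 5 of the 6, against 21.3% of all probe sets. Large GTPases outside the interferon families, such as dynamins and atlastins, had a median difference of -0.17 over 11 genes, of which 1 was called higher, 3 lower and 7 neither. Dnm3, a dynamin, rose by 1.17 (SE 0.17), while its relative Dnm1, the mitochondrial fusion GTPase Opa1 and Ehd1, an endocytic protein of the dynamin superfamily, fell by 0.43, 0.36 and 0.54. Dnm3 was called at 3 of 5 probe sets, with differences from 0.10 to 1.17. Opa1 was called at 1 of 3 probe sets, with another at 0.23, Dnm1 at 1 of 2, with the other at 0.05, and Ehd1 at all 4. The calls on Opa1 and Ehd1 were each lost without 5 of the 6 arrays in turn, and that of Dnm1 without AID+/+ replicate 3. The number of calls in that list was 2 without AID+/+ replicate 2 or AID-/- replicate 2 and 1 without AID+/+ replicate 3. In this list 2 of 11 had the order 2, 3, 1, near the 21.3% of all probe sets.

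Along the interferon gamma pathway, both receptor chains and IRF1 were higher in AID-/- leukaemia. Of 12 listed genes 11 were measured, with a median of 0.41. limma called 4 higher and 0 lower (5 and 1 at an unadjusted p under 0.05), where 17.1% of all genes were called in either direction. Ifngr2, the signalling chain of the receptor, rose by 0.94 (SE 0.13, adjusted p = 0.00223), at 1 of its 2 probe sets. Ifngr1, the ligand-binding chain, rose by 0.80 (SE 0.18, adjusted p = 0.0189), which did not pass once any 1 AID+/+ array or AID-/- replicate 3 was left out (adjusted p up to 0.0733). Irf1, the transcription factor that relays the signal to Gbp and Irg promoters, rose to 8.94 ± 0.26 in AID-/- leukaemia, against 8.19 ± 0.12 in AID+/+ leukaemia (SD, n = 3 each; limma adjusted p = 0.00943). Socs3, a feedback inhibitor of cytokine receptors, rose by 1.69 (SE 0.31), but with AID-/- replicate 1 highest. Ifng itself lay at 2.61 in AID-/- and 2.71 in AID+/+ leukaemia, near the floor of the scale.

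In the type I interferon pathway, 2 of 10 measured genes were called higher and 0 lower by limma (2 and 2 at an unadjusted p under 0.05). This was near the 17.1% of all genes called in either direction, and the median was 0.13. Usp18, which trims ISG15 from proteins and dampens the type I receptor, rose by 2.42 (SE 0.37), a size that is approximate because its AID+/+ mean of 3.90 lay near the floor. Irf9, a DNA-binding subunit of the complex at the ISRE, rose by 0.90 (SE 0.17, adjusted p = 0.0103). The receptor chain gene Ifnar2 differed by -0.39 (SE 0.15) and the ligand gene Ifna4 by -0.21 (SE 0.09), and neither passed. The order replicate 2, 3, 1 was seen in 9 of the 10, among them genes near the floor, against 21.3% of all probe sets. An ordinary linear model without moderation called 0 genes in either direction in the Gbp-related, interferon gamma and type I lists. In the interferon gamma list 1 gene was called lower with array weights, with an intensity trend and without AID-/- replicate 1, and in the type I list 1 without AID-/- replicate 2.

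Other targets of interferon gamma moved unevenly. Of 15 genes limma called 4 higher, 1 lower and 10 neither, with a median of 0.48, where 17.1% of all genes were called in either direction. Icam1, an adhesion molecule, rose by 1.97 (SE 0.15, adjusted p = 0.000106), and the immunoproteasome genes Psmb10 and Psmb8 rose by 0.53 (SE 0.10) and 0.68 (SE 0.16). Ciita, the master activator of MHC class II genes, fell by 0.48 (SE 0.10, adjusted p = 0.0121), at a level below the median probe set. The call on Psmb8 was lost without any 1 AID+/+ array or AID-/- replicate 3. The list had 3 calls without AID+/+ replicate 1, 2 or 3 or AID-/- replicate 3, and 9 without AID-/- replicate 1. The chemokine genes Cxcl9 and Cxcl10, picked after their values were seen, differed by -0.12 (SE 0.10) and 0.13 (SE 0.08) and did not pass.

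Among 21 measured antiviral interferon-stimulated genes, limma called 10 higher, 1 lower and 10 neither, where 17.1% of all genes were called in either direction. The median was 0.74. Rtp4, a receptor transporter, rose by 3.71 (SE 0.54) at 1 of its 2 probe sets, and Oasl1 by 0.95 (SE 0.14). The RNA sensor gene Ifih1 and Ifit3 rose by 1.56 (SE 0.17) and 1.53 (SE 0.21). The lower gene, named after its values were seen, was Ifitm2, which fell by 0.75 (SE 0.18), though not in every fit with an array left out (adjusted p up to 0.102). Without AID+/+ replicate 1 or 3 the list had 7 calls. The order replicate 2, 3, 1 held in 18 of the 21, against 21.3% of all probe sets.

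Partners of the GTPases split. The conjugation system that attaches LC3 to membranes is needed in mice to deliver the GTPases to vacuoles. A list of 13 genes held this system along with the cargo receptor genes Sqstm1 and Tax1bp1. limma called 4 of the 13 higher, 0 lower and 9 neither (4 and 1 at an unadjusted p under 0.05), with a median of 0.05. Of all genes, 17.1% were called in either direction. An ordinary linear model called 2 higher and 0 lower, but 1 gene was called lower with array weights, with dim probe sets left out, with quantile normalization and without AID-/- replicate 2. Atg5 rose by 0.99 (SE 0.11) at its brightest probe set and was called higher at all 3, with differences from 0.57 to 1.00. Map1lc3a, an LC3 gene, rose by 2.00 (SE 0.24) at 1 of 2. Gabarapl2 rose by 0.68 (SE 0.11) at its brighter probe set, while its other probe set differed by -0.40. The cargo receptor gene Sqstm1 rose by 0.50 (SE 0.12), but did not pass when AID+/+ replicate 2 or 3 or AID-/- replicate 2 was left out. Guanylate-binding proteins also expose bacterial products to inflammasomes. Of 9 measured inflammasome genes limma called 4 higher, 3 lower and 2 neither, against 17.1% of all genes called in either direction. The median was 0.77. Pycard, the adaptor ASC, rose by 4.53 (SE 0.33) where it was brightest, whereas another of its 3 probe sets differed by -0.49. Casp4, the sensor of bacterial lipopolysaccharide, rose to 6.73 ± 1.07 in AID-/- leukaemia, against 3.99 ± 0.15 in AID+/+ leukaemia, and Casp1 rose by 1.12 (SE 0.13). The AID+/+ level of Casp4 lay near the floor, so the size of its rise is approximate. Naip5, a flagellin sensor, fell by 0.85 (SE 0.10), at means near the floor of 2.99 in AID-/- and 3.85 in AID+/+ leukaemia. The order 2, 3, 1 held in 4 of the 13 genes of the LC3 list and 3 of the 9 inflammasome genes, against 21.3% of all probe sets.

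**Figure D4:**
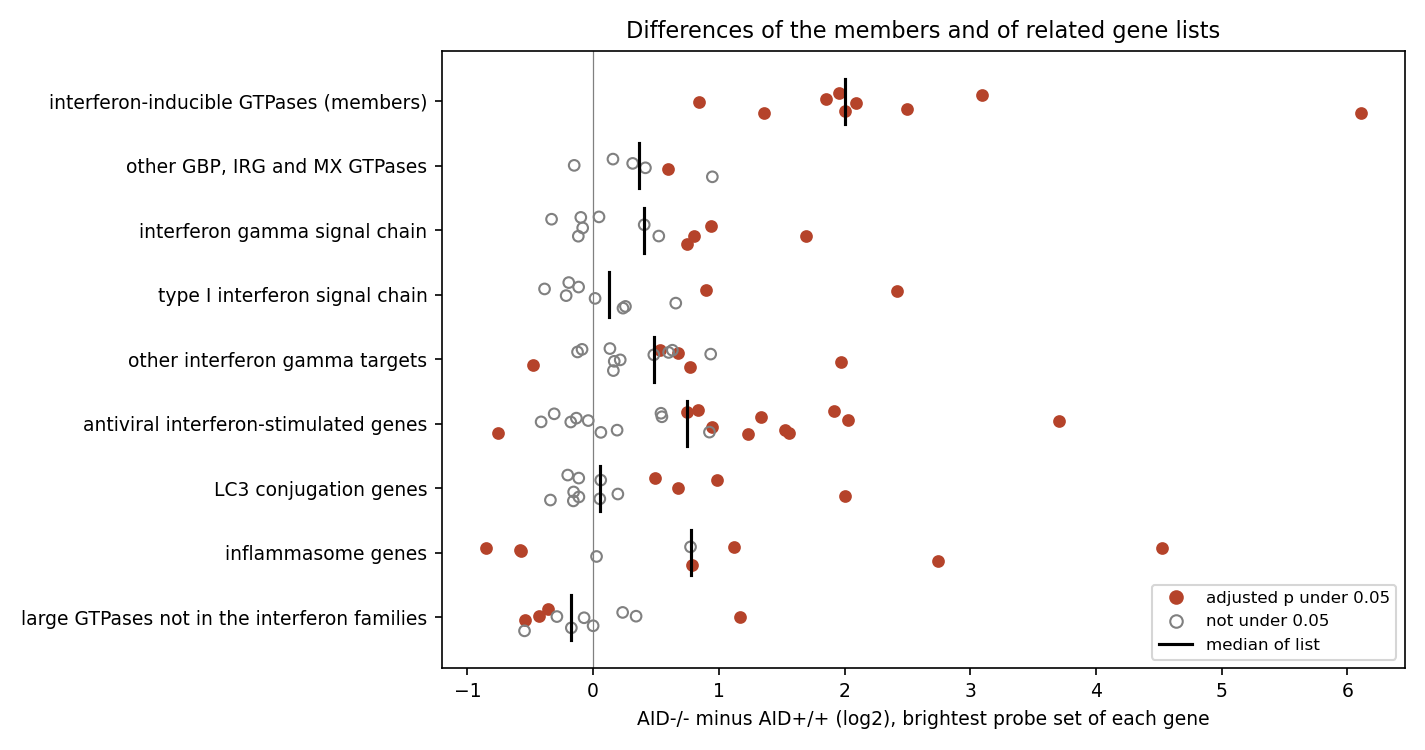
AID-/- minus AID+/+ differences (log2) of 9 members (top row) and of 8 related gene lists, 1 point per gene at its brightest probe set; filled points have a limma adjusted p under 0.05, and black bars are medians. The members have a median of 2.00 and the lists medians from -0.17 to 0.77; the members were chosen on this contrast.

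Genes next to the members on the chromosomes were also read. The 5 nearest genes with a probe set on each side of the Gbp clusters on chromosomes 3 and 5, of Irgm1, of Igtp with Irgm2, and of Iigp1 gave 50 neighbours. limma called 4 of these higher, 7 lower and 39 neither, where 17.1% of all genes were called in either direction. The median difference of the neighbours was -0.03. Beside the chromosome 3 cluster, Pdlim5, Kyat3 and Hs2st1 rose by 0.79 (SE 0.11), 0.65 (SE 0.09) and 0.37 (SE 0.10), while Lmo4 and Pkn2 fell by 1.63 (SE 0.21) and 0.63 (SE 0.10). The fourth higher neighbour was Mrpl22, beside Igtp, with a rise of 0.39 (SE 0.10). The other lower neighbours were Abcg3 beside Gbp6, which fell by 1.21 (SE 0.14), Zfp692 beside Irgm2, and Isoc1, Smim3 and Rbm22 beside Iigp1, which fell by 0.50 to 0.77. Around Irgm1 the differences of the 10 genes ran from -0.27 to 0.24.

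Likeness over the 6 arrays was measured as the root-mean-square distance between mean-centred profiles, that of a gene and the average of the 9 members. The closest genes outside the family were Ptpn14, a tyrosine phosphatase (0.12), Stat4, the transcription factor of interleukin-12 signalling (0.14), Dst, a cytoskeletal linker (0.15), Ncam2, an adhesion molecule (0.15), and Frmd6 (0.17). Stat4 read 8.04, 9.28 and 8.61 in AID-/- replicates 1 to 3, against 6.24, 6.49 and 6.63 in AID+/+ leukaemia. The members themselves stood at 0.17 for Gbp2, 0.22 for Irgm2 and 0.24 for Igtp, and at 1.85 for Gbp2b, whose difference is far larger than the average. All 5 genes thus lay closer to the average profile than any single member.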

How the data were processed

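Total RNA of 6 leukaemia samples (6 micrograms each, purified on RNeasy columns) was labelled with biotin and hybridised to Affymetrix 3' expression arrays, 1 array per sample. The deposited values are log2 RMA expression values per probe set and array, made by the authors; in the submitters' processing notes the tools are RMA and Partek, without versions or an order of steps. Detection calls were not used, and the number of arrays limits the precision.

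The table held 45101 probe sets, and 64 of them, controls of the array, were dropped. Of the rest, 34945 had 1 gene symbol in the platform annotation, 932 had several and 9160 were not named there; symbols were updated by Entrez identifier (34741 probe sets) to RefSeq names of GRCm38.p6. A gene was read at its probe set with the highest mean. Differences (AID-/- minus AID+/+, with the moderated standard error) came from limma 3.58.1 in R 4.3.3, fitted on all 45037 probe sets with group as the only term, two-sided, with Benjamini-Hochberg adjustment over all of them and a threshold of 0.05. The fit was tested on simulated data. The SD is over 3 arrays. The targeted gene is not reported here, so the genotype labels were not checked against it. The members and gene lists were chosen with earlier results of these data known. Named were all members, up to 4 genes of each list by smallest p, the 5 closest profiles and called neighbours; others are marked. Alternatives were other scalings, a filter on dim probe sets, other variance models, array weights, averaged probe sets, a replicate block and leaving out each array.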

Additional observations from a re-analysis of the deposited data

Results flagged for a closer look

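A probe set outside the family as defined here, since it carries the symbols Tgtp2 and Tgtp1 together, also read higher in AID-/- leukaemia. These Irg effectors, also called Irgb6, could not be told apart on the array. The probe set read 7.92, 10.14 and 9.03 in AID-/- replicates 1 to 3, against 7.31, 7.43 and 7.30 in AID+/+ leukaemia, a difference of 1.68 (SE 0.45, limma adjusted p = 0.0408). It had the order of AID-/- arrays seen in the members. The other probe sets that name a GTPase of these families among several symbols, Gbp8 with Gbp4 and Gm4070 with Gvin1, differed by -0.10 (SE 0.09) and -0.33 (SE 0.17) and did not pass.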

How the results depend on the processing

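The other variance models, the filter on dim probe sets and the replicate block leave a group difference as it is by construction. The filter gives no value for 2 member probe sets. Under quantile normalization, median centring and array weights the median over the 9 members was 2.01, 2.03 and 2.04. With 1 array left out it ran from 1.74 without AID-/- replicate 2 to 2.34 without AID-/- replicate 1. The order of AID-/- arrays held at 13 member probe sets under quantile normalization and at 12 under median centring. The number of probe sets called in all, 6589, was 2363 with an ordinary linear model and 4307 to 6109 with 1 array left out, lowest without AID+/+ replicate 3. With the ordinary linear model the calls in the lists were 0 for the other Gbp, Irg and Mx genes, 0 for the interferon gamma chain, 0 for the type I chain, 2 for other interferon gamma targets, 2 for antiviral genes, 2 for LC3 conjugation, 3 for inflammasome genes and 2 for other large GTPases; averaging probe sets also gave 2 for the last. With 1 array left out the calls were 0 to 1 for the other Gbp, Irg and Mx genes, 3 to 9 for interferon gamma targets, 7 to 13 for antiviral genes and 1 to 3 for other large GTPases. The cause of these shifts was not tested. Over all probe sets, deviations of same-numbered arrays from their group means correlated at -0.05, -0.07 and 0.03. Such a correlation cannot show whether the replicate numbers pair the arrays at the members. The fit with the replicate number as a block called 5369 probe sets and 12 of 13 member probe sets higher, against 11 without it; the dimmer Iigp1 probe set was gained. Values near the floor limit the sizes given for Gbp2b, for Iigp1 and for the dimmer Gbp6 probe set.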
